A study of Mus musculus with 3 samples.

Results

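Aldh1a3-positive beta cells are beta cells of the pancreatic islet in which at least 1 molecule of Aldh1a3 RNA was counted. A cell entered the beta gate with at least 500 genes, at least 1000 unique molecular identifiers (UMIs, each a tag of 1 captured RNA molecule) and at most 20% mitochondrial UMIs. It also needed Ins1 and Ins2, the mouse insulin genes, at 25% of its UMIs or more, and Gcg, Sst and Ppy, the hormone genes of alpha, delta and gamma cells, each below 2%. The gate held 13850 of the 28374 cells that passed the filters on genes, UMIs and mitochondrial share, out of 36681 barcodes. Of these beta cells, 2035 had at least 1 Aldh1a3 UMI and are the cells described here. Because Aldh1a3 and insulin chose them, the levels of those genes are given as a description.

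The cells came from islets of mice 9 months old of 3 genotypes, ASF-KO, SC35-KO and WT, with 1 droplet library of transcript 3' ends per genotype. SRSF1 was first known as ASF and SRSF2 as SC35; both are SR proteins, which bind RNA and guide the choice of exons in splicing, and the series asks about their role in diabetes. The labels do not say which part of either gene was deleted, in which cells, by which driver, in which sex or strain, or how many mice each library pooled, and no allele is named that the 3 groups share. In matched Aldh1a3-positive and negative beta cells, Srsf1 stood at 36.1 and 36.6 counts per 1000000 UMIs (CPM) in the library labelled ASF-KO, against 37.2 and 31.3 CPM in WT. Srsf2 stood at 26.7 and 24.7 CPM in the library labelled SC35-KO, against 28.4 and 28.2 CPM in WT. These 3' counts therefore do not show the loss of either gene; 3' tags outside a deleted part cannot check the labels, and the genotype of a library is given below as its label.

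Aldh1a3 encodes a retinaldehyde dehydrogenase, an enzyme that turns retinal into retinoic acid, the ligand of the RAR and RXR nuclear receptors. Mature mouse beta cells hold little of it, and in mouse models of diabetes it is known as a marker of beta cells that lose their mature state, in which genes of glucose sensing and insulin secretion fall while genes of progenitor or other endocrine cells appear. Mafa, which drives insulin transcription, and Slc2a2, the glucose transporter GLUT2, are textbook genes of the mature state. The Aldh1a3 gene spans positions 66390890 to 66427517 of chromosome 7 (GRCm38), is transcribed from the minus strand, has 5 annotated transcripts (GENCODE M21) and overlaps no other annotated gene.

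The libraries held 148320213 UMIs (labelled ASF-KO), 150116204 (labelled SC35-KO) and 154099078 (WT). From 32 to 45 barcodes were shared by each pair of libraries, and no Aldh1a3-positive beta cell shared its barcode with a positive cell of another library. Scrublet marked 12 of the positive cells as doublets in the library labelled ASF-KO, 16 in that labelled SC35-KO and 0 in WT; they were kept, and results without them are among the alternatives. Intervals below are exact 95% intervals that cover counting error only. With 1 library per genotype no difference between genotypes could be tested, and fewer positive cells and less Aldh1a3 RNA per cell cannot be told apart from a summed level.

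Aldh1a3-positive cells made up 901 of 3921 beta cells in the library labelled ASF-KO, or 23.0% (21.7 to 24.3%). They made up 964 of 5138, or 18.8% (17.7 to 19.9%), in that labelled SC35-KO, and 170 of 4791, or 3.55% (3.04 to 4.11%), in WT. Finding a UMI depends on depth, and the positive cells were deeper than the negative cells, with medians of 28694 against 26107 UMIs (labelled ASF-KO), 20445.5 against 16755 (labelled SC35-KO) and 25589 against 22399 (WT). After every beta cell was thinned to 5000 UMIs, which left out 78, 117 and 252 shallower cells, the shares were 7.42% (6.61 to 8.29%) labelled ASF-KO, 7.21% (6.51 to 7.96%) labelled SC35-KO and 0.969% (0.705 to 1.30%) in WT. The share was thus higher under both KO labels than in WT at equal depth, and the intervals of the KO labels overlapped each other.

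Summed over all beta cells, Aldh1a3 stood at 18.9 CPM (18.1 to 19.7) in the library labelled ASF-KO, 16.4 CPM (15.6 to 17.3) in that labelled SC35-KO and 2.08 CPM (1.82 to 2.37) in WT. The ratio to WT was 9.08 (7.92 to 10.5) labelled ASF-KO and 7.89 (6.86 to 9.11) labelled SC35-KO. Delta cells, which make somatostatin, held the next highest endocrine level, with 15.4 CPM (12.2 to 19.3) labelled ASF-KO, 6.95 CPM (5.28 to 8.99) labelled SC35-KO and 5.64 CPM (3.83 to 8.0001) in WT. In WT the delta gate was thus above the beta gate, with a beta over delta ratio of 0.369 (0.253 to 0.557). The same ratio was 1.23 (0.977 to 1.56) labelled ASF-KO, an interval that holds 1, and 2.36 (1.82 to 3.13) labelled SC35-KO. Alpha and gamma gates held 2.64 CPM or less in each library. The alpha gate also stood above WT, with ratios of 3.32 (1.66 to 7.22) labelled ASF-KO and 2.41 (1.23 to 5.17) labelled SC35-KO. The delta ratio to WT was 2.74 (1.78 to 4.29) labelled ASF-KO. It was 1.23 (0.784 to 1.97) labelled SC35-KO, an interval that holds 1. The gamma ratios, 3.74 (0.887 to 18.0) and 1.63 (0.386 to 7.84), had intervals that hold 1. A level above WT was thus not particular to beta cells.

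**Figure D1:**
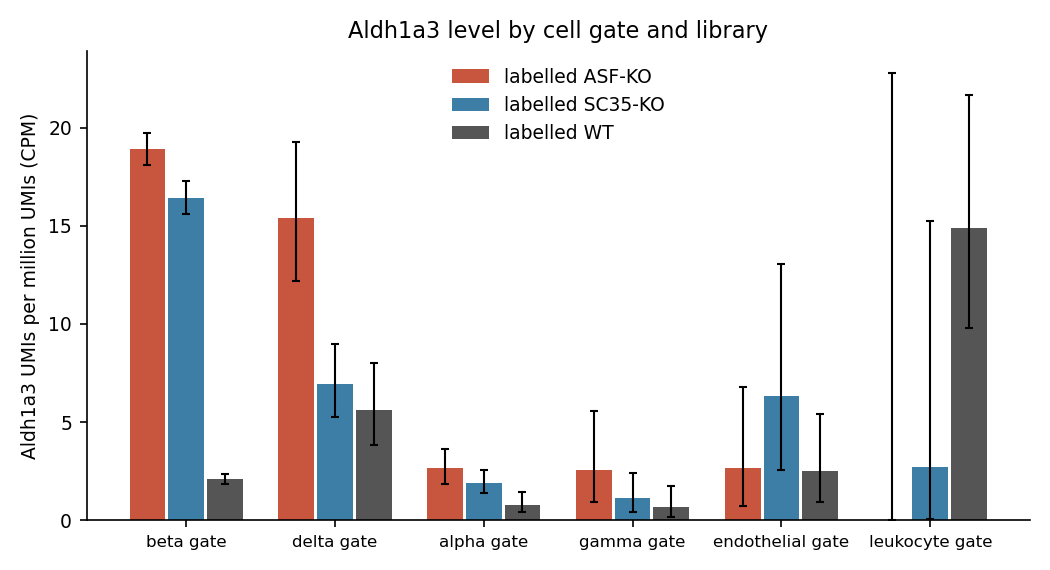
Aldh1a3 CPM (y axis, linear) summed over the cells of each gate (x axis) in the libraries labelled ASF-KO, SC35-KO and WT; bars are the level of 1 library and error bars are exact 95% Poisson intervals of the count. The beta gate stands at 18.9 and 16.4 CPM under the KO labels against 2.08 CPM in WT, while the leukocyte gate, with 49, 103 and 390 cells, has the widest intervals.

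Endothelial cells, which line vessels, were chosen to gauge free Aldh1a3 RNA, but whether their Aldh1a3 UMIs were free RNA was not tested. Thinned to 2000 UMIs, a depth most endothelial cells reach, 3.75% (3.18 to 4.40%) of beta cells had an Aldh1a3 UMI in the library labelled ASF-KO, against 0.526% (0.0638 to 1.89%) of endothelial cells. In the library labelled SC35-KO the shares were 2.85% (2.41 to 3.35%) of beta cells and 1.18% (0.243 to 3.40%) of endothelial cells, with intervals that overlap. In WT they were 0.505% (0.324 to 0.750%) of beta cells and 0.907% (0.295 to 2.10%) of endothelial cells. Unthinned, 0.930%, 1.81% and 0.750% of endothelial cells had a UMI, at median depths of 3335.5, 2463 and 2970 UMIs against 26706, 17395 and 22463 in beta cells. Per UMI, beta cells held 7.11 times (2.77 to 26.1) the endothelial level labelled ASF-KO, 2.59 times (1.26 to 6.46) labelled SC35-KO and 0.836 times (0.378 to 2.30) in WT. In WT, beta cells held 2.62 times (1.44 to 5.32) the alpha level and 3.06 times (1.18 to 11.3) the gamma level per UMI. The WT beta level thus lay above the alpha and gamma levels and within the interval of the endothelial level. That endothelial level rests on 6 UMIs in 667 cells. Scaled as CPM but over insulin UMIs alone, Aldh1a3 stood at 46.5, 132 and 78.2 in endothelial cells (labelled ASF-KO, labelled SC35-KO, WT). The beta cell values were 29.6, 26.0 and 3.89. Per insulin UMI, the endothelial values were thus above the beta values in every library. These endothelial values rest on 4, 7 and 6 Aldh1a3 UMIs and have no interval here, so their order against beta cells is uncertain. The part of free RNA in the WT beta level was not tested. In WT leukocytes, 7 of 390 cells held 27 Aldh1a3 UMIs, or 14.9 CPM (9.81 to 21.7).

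Most positive cells held a single Aldh1a3 UMI, the value just inside the threshold: 54.2% of them labelled ASF-KO, 66.5% labelled SC35-KO and 78.2% in WT. Cells with 5 UMIs or more numbered 106 labelled ASF-KO, 29 labelled SC35-KO and 1 in WT, and the highest cells held 31, 10 and 5 UMIs. At 10000 UMIs per beta cell, the variance over the mean of the Aldh1a3 count was 2.34 labelled ASF-KO, 1.44 labelled SC35-KO and 1.36 in WT, where 1 is the value for random sampling from equal cells. This ratio grows with the mean, which was 0.194, 0.152 and 0.0221 UMIs per cell, so it gives no order of unevenness between libraries. Labelled ASF-KO, 89 cells with 5 to 9 UMIs carried 26.4% of all Aldh1a3 UMIs of the gate, and 17 cells with 10 or more carried 11.5%.

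**Figure D2:**
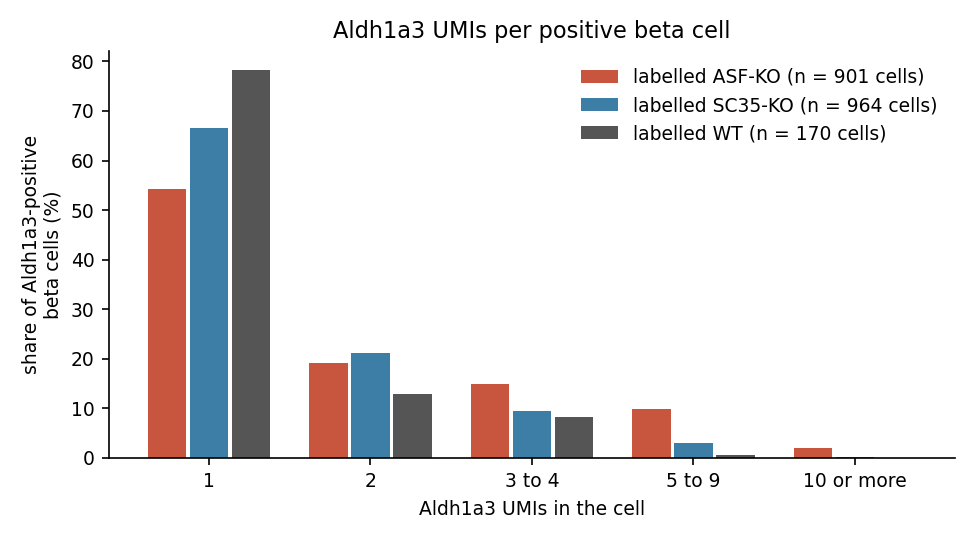
Share of Aldh1a3-positive beta cells (y axis, percent) by the number of Aldh1a3 UMIs in the cell (x axis) in the libraries labelled ASF-KO, SC35-KO and WT, with 901, 964 and 170 positive cells. A single UMI is the most frequent value in every library, and 10 UMIs or more were counted in 17 cells labelled ASF-KO, 1 labelled SC35-KO and 0 in WT.

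To compare positive with negative cells of the same gate, each positive cell was paired within its library with a beta cell of nearly equal UMI depth that had no Aldh1a3 UMI, which gave 893 pairs (labelled ASF-KO), 963 (labelled SC35-KO) and 170 (WT). Ucn3, a beta cell maturity hormone, was detected in 92.6%, 89.5% and 96.5% of positive cells, against 93.6%, 89.3% and 97.6% of matched negative cells (labelled ASF-KO, labelled SC35-KO, WT). Insulin took a median of 63.0%, 62.7% and 51.8% of UMIs in positive cells, against 64.5%, 64.5% and 54.7% in matched negative cells. Positive cells held UMIs of a median of 3575, 2845 and 3933 genes, against 3485, 2789 and 3872.5 genes in matched negative cells.

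UMIs were summed per library and state and compared with edgeR's quasi-likelihood test, with the library as a block, so that the 3 libraries were the replicates of the contrast; nothing in the labels says how many mice each held. Of 12499 genes tested, 91 were higher in positive cells (0.728%) and 68 were lower (0.544%) at a Benjamini-Hochberg adjusted p below 0.05, or 1.27% in either direction. Of these, 70 of the higher and 55 of the lower genes had the same direction in all 3 libraries. The differences were small: past 1.5-fold in 1 library, 0.714%, 0.0992% and 0.928% of genes at 20 CPM or more were higher in positive cells (labelled ASF-KO, labelled SC35-KO, WT), and 0.0325%, 0.0331% and 0.391% were lower. Without the WT library 110 genes were higher and 104 lower. The counts were 26 and 22 without the library labelled ASF-KO, and 62 and 33 without that labelled SC35-KO. DESeq2 on the same sums called 10 and 8, all of which edgeR also called.

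Genes of mature beta cell function were lower in Aldh1a3-positive cells. Of 19 tested genes of the beta identity and maturity list, 8 fell and 0 rose: Mafa, Trpm5, Sytl4, Ppp1r1a, Slc2a2, Slc30a8, Ero1lb and Ffar1. Of all genes tested, 0.544% fell and 0.728% rose. The list's median log2 fold change was -0.12, against -0.00 over all genes tested. Of the 19, 11 were lower and 3 were higher in all 3 libraries, with no such count over all genes to set beside it. The list was chosen with earlier results of these data known, so its direction is not independent evidence. Mafa, Trpm5, Sytl4 and Ppp1r1a stayed lower past the threshold under DESeq2, under matching on UMIs other than insulin and mitochondrial ones, and without any 1 library. The other 4 did not pass with DESeq2, with that matching, or without the library labelled ASF-KO, and Slc30a8, Ero1lb and Ffar1 did not pass without that labelled SC35-KO.

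Mafa, the transcription factor that activates the insulin genes in mature beta cells, had 175, 124 and 165 CPM in positive cells, against 233, 163 and 222 CPM in matched negative cells (labelled ASF-KO, labelled SC35-KO, WT). The positive over negative ratio was 0.750 (0.723 to 0.779), 0.761 (0.722 to 0.801) and 0.742 (0.674 to 0.817). The 3 libraries thus gave nearly the same ratio, with a log2 fold change of -0.45 (edgeR's quasi-likelihood test, adjusted p = 3.62e-10). A Mafa UMI was found in 82.3%, 71.7% and 81.8% of positive cells, against 91.3%, 78.4% and 94.1% of matched negative cells.

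Trpm5, a calcium-activated cation channel that acts in glucose-stimulated insulin secretion, had 31.4, 50.8 and 58.8 CPM in positive cells, against 42.3, 63.7 and 83.9 CPM in matched negative cells in the same order of libraries. It was lower in every library (log2 fold change -0.44, edgeR's quasi-likelihood test, adjusted p = 4.51e-08). Sytl4, the granuphilin that docks insulin granules at the plasma membrane, had 56.2, 39.4 and 72.4 CPM against 68.0, 48.2 and 96.4 CPM (log2 fold change -0.35). Ppp1r1a, an inhibitor of protein phosphatase 1, had 162, 110.2 and 163 CPM against 181, 132 and 235 CPM (log2 fold change -0.32). For Ppp1r1a the WT ratio of 0.693 (0.630 to 0.762) lay below that labelled ASF-KO, 0.898 (0.862 to 0.935); this difference between libraries was not tested.

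Slc2a2 had 133, 179 and 295 CPM in positive cells, against 151, 192 and 360.5 CPM in matched negative cells, a log2 fold change of -0.23 (edgeR's quasi-likelihood test, adjusted p = 0.000835). Slc30a8, the zinc transporter of insulin granules, fell by 0.19 on the log2 scale, as did Ero1lb, an oxidase that helps proinsulin to fold. Ffar1, a receptor for long-chain fatty acids, fell by 0.17. Each of these 4 genes was lower in positive cells in all 3 libraries.

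Other genes of the beta cell program did not pass the test. Ucn3 had 165, 165 and 287 CPM in positive cells, against 169, 161 and 299 CPM in matched negative cells, and did not pass (log2 fold change -0.06). Nkx6-1, which keeps beta cell identity, had 121, 140.4 and 207 CPM against 119.9, 128 and 199 CPM, and Pdx1 had a log2 fold change of -0.13; neither passed. Iapp, the islet amyloid hormone released with insulin, had 44765, 57406 and 48971 CPM, against 41279, 51979 and 44882 CPM, higher in all 3 libraries but not called (log2 fold change 0.08); it was called higher with matching outside insulin, against all negative cells and without the WT library. Of 21 endocrine transcription factors tested, Mafa alone passed, beside 1.27% of all genes tested. Pax6 and Neurod1 had log2 fold changes of -0.09 and -0.13.

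The other genes with the largest decreases serve various functions. Tmsb15b2, a thymosin that binds actin monomers and has close copies that may share its reads, had 24.99, 44.8 and 82.1 CPM in positive cells, against 34.7, 62.0 and 142 CPM in matched negative cells (log2 fold change -0.59, edgeR's quasi-likelihood test, adjusted p = 3.62e-10). Tmem215, a transmembrane protein, had 50.9, 45.4 and 81.9 CPM against 64.4, 61.1 and 125 CPM (log2 fold change -0.47). T2, Syndig1l, Map3k15 (a kinase), Lifr (the leukemia inhibitory factor receptor), Prss53 (a serine protease) and Kif12 (a kinesin) fell by 0.31 to 0.52 on the log2 scale. All of these were lower in all 3 libraries, as the rule that named them required. Prss53 did not pass without the library labelled ASF-KO, nor Map3k15 and Kif12 without that labelled SC35-KO.

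**Figure D3:**
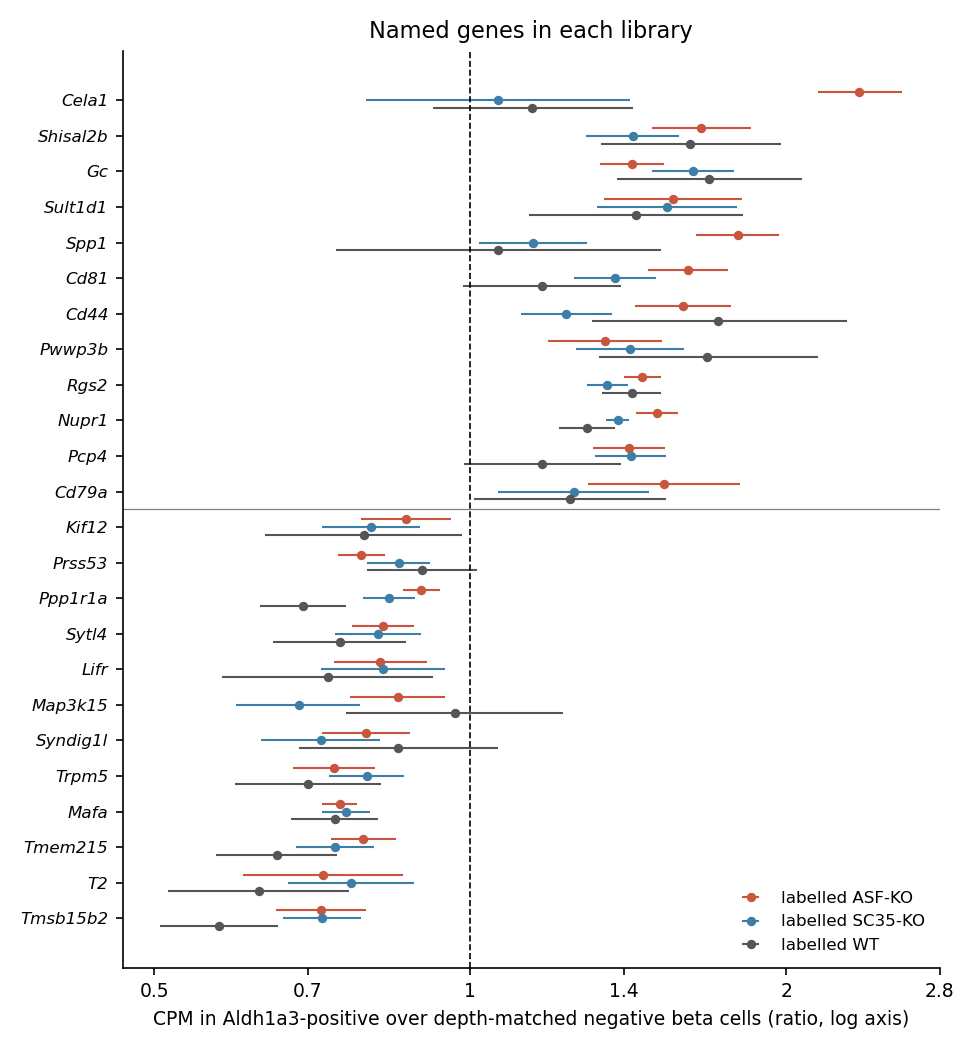
Ratio of CPM in Aldh1a3-positive over depth-matched negative beta cells (x axis, log scale) for the 12 called genes with the largest increase and the 12 with the largest decrease (y axis), in the libraries labelled ASF-KO, SC35-KO and WT; bars are 95% counting intervals and the dashed line marks equal levels. Points of all 3 libraries lie on 1 side of the line for each gene, by the rule that chose them, and Cela1 stands out by its ratio of 2.35 labelled ASF-KO against 1.06 labelled SC35-KO and 1.15 in WT.

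Some genes linked to immature or stressed beta cells were higher in positive cells. Of 10 tested genes of the dedifferentiation list, 5 rose (Gast, Serpina7, Cd81, Nupr1 and Gpx3), Nnat fell and 4 did not pass. Of all genes tested, 0.728% rose and 0.544% fell. The list's median log2 fold change was 0.35 against -0.00 over all genes tested. The list was built from genes known from earlier work on such cells and with earlier results of these libraries known, so its direction is not independent evidence. DESeq2 called Cd81 and Nupr1 alone of these 6 genes.

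Cd81, a tetraspanin found on immature and stressed beta cells, had 48.4, 56.4 and 63.6 CPM in positive cells, against 30.0, 41.1 and 54.4 CPM in matched negative cells. Its ratio was 1.61 (1.48 to 1.76) labelled ASF-KO and 1.37 (1.26 to 1.5025) labelled SC35-KO, and in WT it was 1.17 with an interval of 0.984 to 1.39 that holds 1 (log2 fold change 0.48, edgeR's quasi-likelihood test, adjusted p = 9.6e-08). Nupr1, a stress-induced chromatin protein, had 169, 728 and 531 CPM against 112, 527 and 412 CPM, higher in every library (log2 fold change 0.43, adjusted p = 2.02e-09). Positive cells also had a Cd81 UMI more often, in 50.2%, 45.5% and 60.0% of them, against 35.2%, 39.1% and 50% of matched negative cells. A Nupr1 UMI was found in 67.5%, 92.7% and 84.1% of positive cells, against 62.5%, 87.5% and 88.2% of matched negative cells, so less often in WT.

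Serpina7, which encodes the thyroxine-binding globulin, had 18.2 and 18.8 CPM in positive cells, against 6.08 and 12.3 CPM in negative cells in the libraries labelled ASF-KO and SC35-KO. In WT it stood at 4.84 CPM in both states, so its log2 fold change of 0.99 (edgeR's quasi-likelihood test, adjusted p = 2.14e-07) rested on the libraries labelled KO. Gast, the gene of the hormone gastrin, which adult mouse beta cells normally lack, had 1.54, 2.77 and 0.661 CPM, against 0.732, 0.827 and 0.440 CPM. Gast was sparse: a UMI was found in 4.48%, 3.63% and 1.76% of positive cells, against 2.13%, 1.77% and 1.18% of negative cells, and 1 positive cell held 28.1% of the Gast UMIs of positive cells labelled SC35-KO. Without the library labelled ASF-KO, or without that labelled SC35-KO, Gast did not pass. Gpx3, a secreted glutathione peroxidase, had 42.7, 27.0 and 34.6 CPM against 32.0, 25.9 and 24.0 CPM (log2 fold change 0.26) and did not pass without the library labelled ASF-KO. Nnat, neuronatin, which in mouse beta cells aids insulin processing, had 4.14, 5.98 and 16.3 CPM against 7.73, 9.78 and 20.7 CPM (log2 fold change -0.74).

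Of the remaining members, Neurog3, the factor that specifies endocrine progenitors, had 1.39, 1.90 and 2.86 CPM in positive cells, against 0.330, 1.65 and 1.98 CPM in matched negative cells. It was higher in all 3 libraries but did not pass the test (log2 fold change 0.77, edgeR's quasi-likelihood test, adjusted p = 0.387). Sox4, Cd24a and Dcdc2a had log2 fold changes of -0.17, 0.15 and 0.24 and did not pass. Of the 24 genes on the list, 14 were too low to be tested.

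Outside the lists, Gc, the vitamin D-binding protein, which in the islet is mainly an alpha cell gene, had 70.2, 62.1 and 58.3 CPM in positive cells, against 49.3, 38.1 and 34.6 CPM in matched negative cells. The ratio was 1.43 (1.33 to 1.53), 1.63 (1.49 to 1.78) and 1.69 (1.38 to 2.07), and the log2 fold change was 0.57 (edgeR's quasi-likelihood test, adjusted p = 3.62e-10). Of the listed alpha cell markers, 0 of 9 tested passed, beside 1.27% of all genes tested. Their summed level was 0.979, 0.942 and 1.10 times that of negative cells. Gcg, which the gate capped, was however called lower when cells rich in markers of another cell type were left out. It was also called lower with matching outside insulin and without the WT library. Rgs2, which turns off Gq-coupled receptor signals, had 209, 211 and 505 CPM against 144, 157 and 355 CPM (log2 fold change 0.45).

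Cd44, the receptor for hyaluronan, had 34.4, 42.4 and 31.5 CPM in positive cells, against 21.6, 34.4 and 18.3 CPM in matched negative cells (log2 fold change 0.47, edgeR's quasi-likelihood test, adjusted p = 5.39e-06). Shisal2b, Sult1d1 (a sulfotransferase), Pwwp3b and Pcp4 (a calmodulin-binding protein) rose by 0.42 to 0.59 on the log2 scale. Spp1, osteopontin, and Cd79a, a subunit of the B cell receptor, rose by 0.50 and 0.39; the ratio of Spp1 was 1.80 labelled ASF-KO against 1.15 labelled SC35-KO and 1.06 in WT. Neither passed without the library labelled ASF-KO. Spp1 is also a duct cell gene, and the other 7 tested ductal markers were not called. Mef2c, a transcription factor chosen here after its values were seen, had 16.5, 21.3 and 11.4 CPM against 7.36, 12.8 and 8.59 CPM (log2 fold change 0.86).

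Cela1, an elastase of acinar cells, which make digestive enzymes, had the largest increase of the ranked genes (log2 fold change 0.86). These were called genes with 1 direction in all libraries and a mean of 20 CPM or more. All 15 tested acinar markers were called higher, but 1 positive cell labelled ASF-KO held 8821 of the 17719 acinar UMIs of the matched positive cells there. The summed acinar level was 2.15 times that of negative cells labelled ASF-KO, 0.986 times labelled SC35-KO and 1.08 times in WT. Cells with at least 0.2% of their UMIs from acinar, leukocyte, endothelial or mesenchymal markers made up 0.888%, 0.519% and 5.29% of positive cells and 2.91%, 1.22% and 6.92% of negative cells. Without these cells, an alternative added after seeing the data, 0 of 15 acinar markers were called and Cela1 had a log2 fold change of -0.11. The sums of other foreign markers were small: endothelial markers stood at 15.6, 19.3 and 15.9 CPM in positive cells, against 27.0, 20.3 and 39.6 CPM in matched negative cells, and leukocyte markers at 56.7, 71.3 and 145 CPM against 72.7, 75.1 and 120 CPM. Of 10 leukocyte markers Cd79a rose while Cd74 and Fcer1g fell, and of 9 endothelial markers Esm1 fell. In the median positive cell the endothelial and mesenchymal markers held 0 UMIs in every library. Without the marker-rich cells, the same 8 identity genes and the same 6 dedifferentiation genes were called as before, within totals of 63 higher and 62 lower genes.

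Other genes of the retinoic acid pathway did not pass the test. Of 13 tested members of 26 listed, 0 were called, beside 1.27% of all genes tested, and the median log2 fold change was 0.01. At that share, 0 calls among 13 genes say little about the pathway. Rbp4, the plasma carrier of retinol, had 22.4, 23.6 and 21.8 CPM in positive cells, against 17.1, 35.4 and 27.7 CPM in matched negative cells, higher in 1 library and lower in the other two; without the library labelled ASF-KO it was called lower (log2 fold change -0.57). The receptors Rara, Rarg, Rxra and Rxrb had log2 fold changes of 0.36, 0.18, 0.09 and 0.05, and the retinol dehydrogenases Rdh10 and Rdh11 of -0.11 and 0.13. The counts of these genes were low, with Rara at 3.40, 4.13 and 5.72 CPM in positive cells, against 2.23, 3.26 and 5.50 CPM. Of the genes not tested for low counts, several are direct targets or partners of the pathway, such as Rarb, Cyp26a1, Cyp26b1, Crabp1, Crabp2 and Stra6.

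Few stress response genes were called. Of 18 tested targets and members of the Atf4 and Chop branch of the stress response, which answers to amino acid shortage and unfolded protein, 3 rose, against 0.728% of all genes, and 0 fell: Nupr1, Chac1 (which breaks down glutathione) and Asns (asparagine synthetase). The median log2 fold change was 0.16. Of the 18, 14 were higher and 0 were lower in all 3 libraries, with no such count over all genes to set beside it. Asns had 41.9, 68.6 and 98.0 CPM in positive cells, against 33.6, 57.7 and 93.8 CPM in matched negative cells (log2 fold change 0.19), and Chac1 a log2 fold change of 0.33; neither passed with DESeq2, without Scrublet-marked cells, without the library labelled ASF-KO or without the cells rich in markers of another cell type, which left Nupr1 alone. Of 23 chaperones and other targets of the unfolded protein response, Herpud1, which serves the degradation of misfolded proteins, rose (log2 fold change 0.18) and 0 fell; Herpud1 did not pass with DESeq2, with at least 2 Aldh1a3 UMIs, or without either of the libraries labelled KO. Hspa5, the main chaperone of the endoplasmic reticulum, had 1115, 281 and 524 CPM against 1067, 264 and 444 CPM and did not pass.

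In most other lists, few or no genes were called. Of 12 heat shock genes, 25 nuclear oxidative phosphorylation genes, 22 ribosomal protein genes, 9 hypoxia genes, 15 p53 and senescence genes and 12 SR proteins, 0 were called. Of all genes tested, 1.27% were called, so 0 calls in lists this short say little about them. The heat shock gene Hspb1 was called higher without the marker-rich cells. Of 14 prohormone and granule genes, Chgb, a granin of the insulin granule, rose (745, 544 and 641 CPM in positive cells, against 639, 505 and 493 CPM in matched negative cells, log2 fold change 0.18), and Slc30a8 fell; neither passed without the library labelled ASF-KO. Of 15 cell cycle genes, Ccnd1, the cyclin of early G1, rose (log2 fold change 0.17), a call lost without either of the libraries labelled KO and without the marker-rich cells. Mki67 and Top2a, genes of dividing cells, had 0.878 and 1.06 CPM in positive cells against 0 and 0.0732 CPM in negative cells labelled ASF-KO, 5.40 and 7.97 CPM against 2.43 and 2.77 CPM labelled SC35-KO, but 0.440 and 0 CPM against 4.62 and 7.27 CPM in WT, and did not pass; both were called higher without the marker-rich cells. Ccnd2, another cyclin, was called lower without those cells. Of 17 genes of insulin and IGF signalling, Pappa2, a protease that frees IGF from its binding proteins, was called lower (log2 fold change -0.30). Pappa2 had 50.9, 62.3 and 27.5 CPM in positive cells, against 63.3, 77.8 and 17.0 CPM in matched negative cells, so that WT ran the opposite way, and Pappa2 did not pass without either of the other libraries.

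Levels of some of these genes followed the number of Aldh1a3 UMIs in the cell. Classes of 0, 1, 2, 3 to 4 and 5 or more UMIs are cuts of 1 count, not cell types, and the class of 0 holds the matched negative cells. The step from 0 to the other classes thus repeats the contrast above and adds no support to it. The genes quoted were picked from the named genes, and not all named genes kept such an order. Mafa stood at 233, 189.6, 187, 156 and 112 CPM in these classes labelled ASF-KO, and at 163, 133, 111, 109 and 80.4 CPM labelled SC35-KO. Mafa was thus lowest in the cells with most Aldh1a3 in both libraries. Slc2a2 stood at 151, 144, 141, 113 and 93.7 CPM labelled ASF-KO, and at 192, 186, 171, 171 and 115 CPM labelled SC35-KO. Ucn3 showed no such order, with 169, 167, 161, 171 and 155 CPM labelled ASF-KO and 161, 165, 164, 156 and 179.9 CPM labelled SC35-KO.

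Cd81 stood at 30.0, 40.0, 48.5, 49.6 and 78.2 CPM from 0 to 5 or more Aldh1a3 UMIs labelled ASF-KO, and at 41.1, 54.0, 57.3, 63.5 and 74.4 CPM labelled SC35-KO. Gc stood at 49.3, 66.3, 65.3, 73.4 and 88.6 CPM labelled ASF-KO, and at 38.1, 56.3, 71.0, 70.1 and 82.8 CPM labelled SC35-KO. Both genes were highest in the class with most Aldh1a3 in both libraries. Cd44 and Rgs2 reached 55.8 and 332 CPM in the class of 5 or more labelled ASF-KO, against 21.6 and 144 CPM in the class of 0. Labelled SC35-KO, Cd44 reached 69.6 against 34.4 CPM, but Rgs2 was highest in the class of 2, with 255 CPM against 241 CPM in the class of 5 or more. Nupr1 showed no such order labelled ASF-KO, with 112, 179, 151, 169 and 161 CPM. Labelled SC35-KO, Nupr1 was highest in the class of 5 or more, at 855 CPM. Spp1 labelled ASF-KO was highest in the class of 3 to 4, with 61.0 CPM against 41.5 CPM in the class of 5 or more. In WT only the classes of 0, 1 and 2 held 20 cells or more; Mafa there stood at 222, 164 and 180.4 CPM and Gc at 34.6, 59.3 and 61.0 CPM. Insulin took a median of 64.5, 63.3, 63.9, 62.3 and 60.7% of UMIs in the classes labelled ASF-KO, and the class of 5 or more labelled SC35-KO was deeper than the class of 0, with medians of 25357 against 20434 UMIs; the part of depth and insulin share in these orders was not tested.

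**Figure D4:**
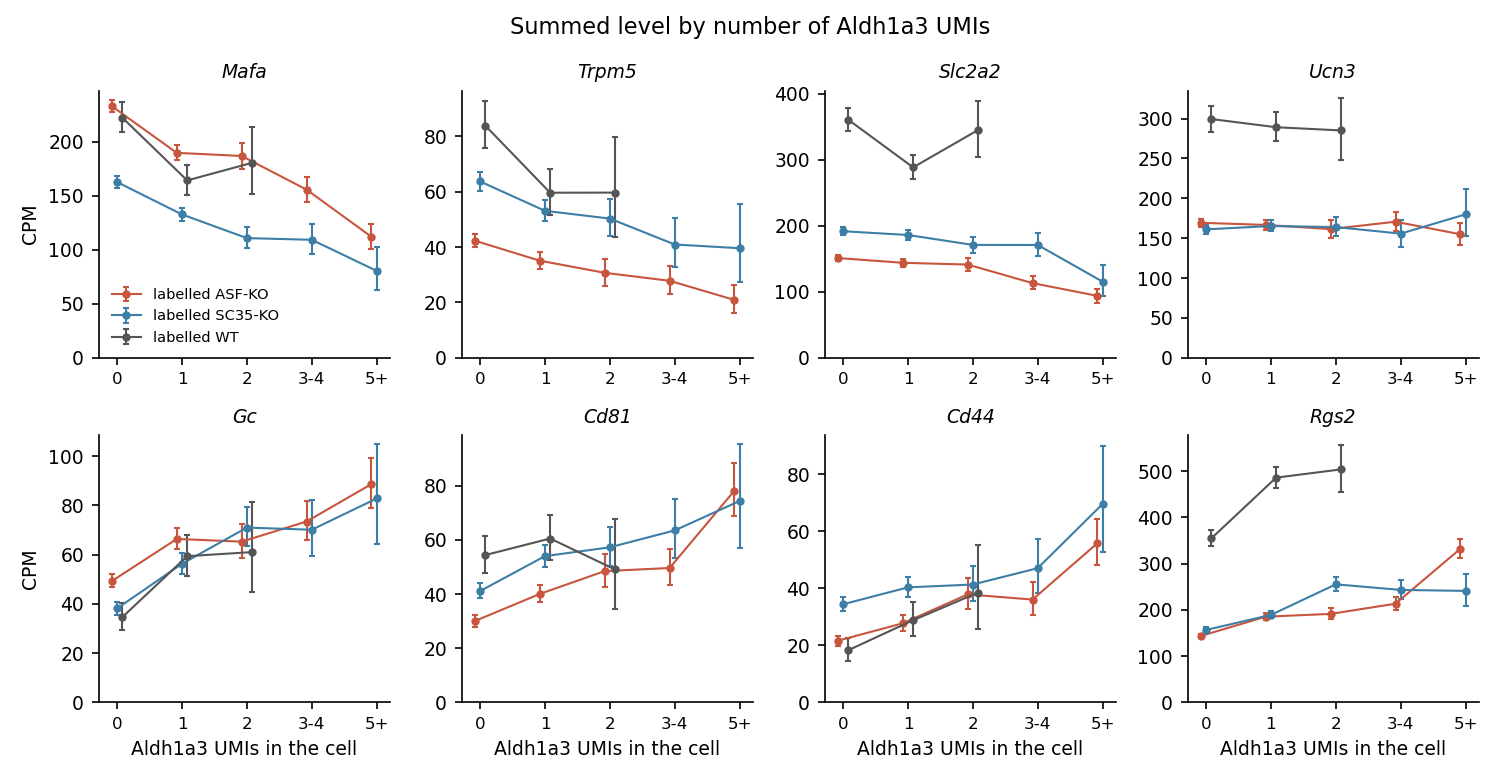
Level of 8 genes (y axes, CPM, linear) in beta cells grouped by their number of Aldh1a3 UMIs (x axis: 0, 1, 2, 3 to 4, 5 or more), in the libraries labelled ASF-KO, SC35-KO and WT; bars are exact 95% Poisson intervals of the summed counts, and WT classes of fewer than 20 cells are left out. Mafa, Trpm5 and Slc2a2 are lowest and Cd81, Cd44 and Gc highest in the class of 5 or more Aldh1a3 UMIs under both KO labels, while Ucn3 stays between 155 and 179.9 CPM there.

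Between the genotypes, the positive cells were compared by level alone. Of 1421 genes at 50 CPM or more in positive cells of at least 1 of the 2 libraries compared, 67 (4.71%) were past 1.5-fold higher and 491 (34.6%) past 1.5-fold lower labelled ASF-KO than in WT; labelled SC35-KO, 3 of 1376 (0.218%) were higher and 442 (32.1%) lower. The whole scale was shifted: the median log2 ratio to WT was -0.38 labelled ASF-KO and -0.44 labelled SC35-KO, and -0.02 and -0.10 when Ins1, Ins2 and mitochondrial UMIs were left out of the totals. Negative cells were shifted alike, with medians of -0.37 and -0.42. Both sets of ratios share the WT library, so they are not independent.

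In positive cells labelled ASF-KO, Sdf2l1, Fkbp11 and Creld2, which serve protein folding in the endoplasmic reticulum, stood highest over WT. Sdf2l1, a cofactor of the chaperone Hspa5, had 184 CPM labelled ASF-KO against 35.4 CPM in WT, a ratio of 5.17 (4.43 to 6.10), and in negative cells the ratio was 5.92. Pdia6, a disulfide isomerase, had a ratio of 2.62 (2.41 to 2.86) in positive cells and 2.82 in negative cells, and Hspa5 of 2.12 (2.03 to 2.21) and 2.40. Of 22 genes of the unfolded protein response at 50 CPM or more, 15 were past 1.5-fold higher and 2 lower labelled ASF-KO, in positive and in negative cells alike. Labelled SC35-KO, 0 were higher and 3 lower in positive cells. Of all genes compared in positive cells, 4.71% were higher and 34.6% lower labelled ASF-KO, and 0.218% higher and 32.1% lower labelled SC35-KO. Mt1 and Mt2, the metallothioneins that bind zinc and copper, had 168 and 29.3 CPM in positive cells labelled ASF-KO against 4994 and 1268 CPM in WT.

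Labelled SC35-KO, Pappa2 was the gene highest over WT in positive cells, with a ratio of 2.25 (1.88 to 2.73), and its ratio in negative cells was 4.56 (3.65 to 5.85). The intervals do not overlap, but they cover counting error only and the difference was not tested. WT is the library in which Pappa2 was higher in positive than in negative cells. Genes of the mature state differed in how their ratios to WT compared between positive and negative cells. Slc2a2 had ratios of 0.448 in positive and 0.419 in negative cells labelled ASF-KO, and of 0.604 (0.567 to 0.643) and 0.531 (0.502 to 0.563) labelled SC35-KO. The last 2 counting intervals lie close together without overlap, and the difference was not tested. Ppp1r1a had 0.997 (0.922 to 1.08) in positive and 0.768 (0.719 to 0.821) in negative cells labelled ASF-KO, and 0.675 (0.621 to 0.734) and 0.560 (0.521 to 0.601) labelled SC35-KO; these differences were not tested. Ucn3 had 0.575 and 0.565 labelled ASF-KO, and 0.574 and 0.538 labelled SC35-KO, while its level showed no order by Aldh1a3 class within a library. Mafa had a ratio of 1.06 in positive and 1.05 in negative cells labelled ASF-KO, and 0.748 and 0.732 labelled SC35-KO. Over all genes compared, the median ratio was 0.767 in positive and 0.772 in negative cells labelled ASF-KO. Labelled SC35-KO these medians were 0.737 and 0.749, so Mafa stood close to the median gene there.

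The lowest ratios labelled SC35-KO belonged to the acinar enzyme genes Try4, Ctrb1 and Prss2. The summed acinar level in matched negative beta cells was likewise 49.3 CPM labelled SC35-KO against 525 CPM in WT, and the part of RNA from acinar cells in these ratios was not tested.

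Over all these genes, the difference between the log2 ratio to WT in positive cells and that in negative cells had a median of -0.00 labelled ASF-KO, with an interquartile range of -0.10 to 0.09. Labelled SC35-KO the median was -0.01, with an interquartile range of -0.11 to 0.09. Of 18 beta identity genes labelled ASF-KO, 1 was past 1.5-fold higher and 8 were lower in positive cells, with the same numbers in negative cells, beside 4.71% higher and 34.6% lower of all 1421 genes. Immediate early genes, which respond within minutes to stimuli and to handling, were past 1.5-fold lower for 10 of 10 in positive cells labelled SC35-KO. This stands beside 32.1% of all 1376 genes there, and in negative cells 6 of 10 were lower. The summed level of these genes in positive over negative cells was 1.03 labelled ASF-KO, 0.957 labelled SC35-KO and 1.42 in WT.

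**Figure D5:**
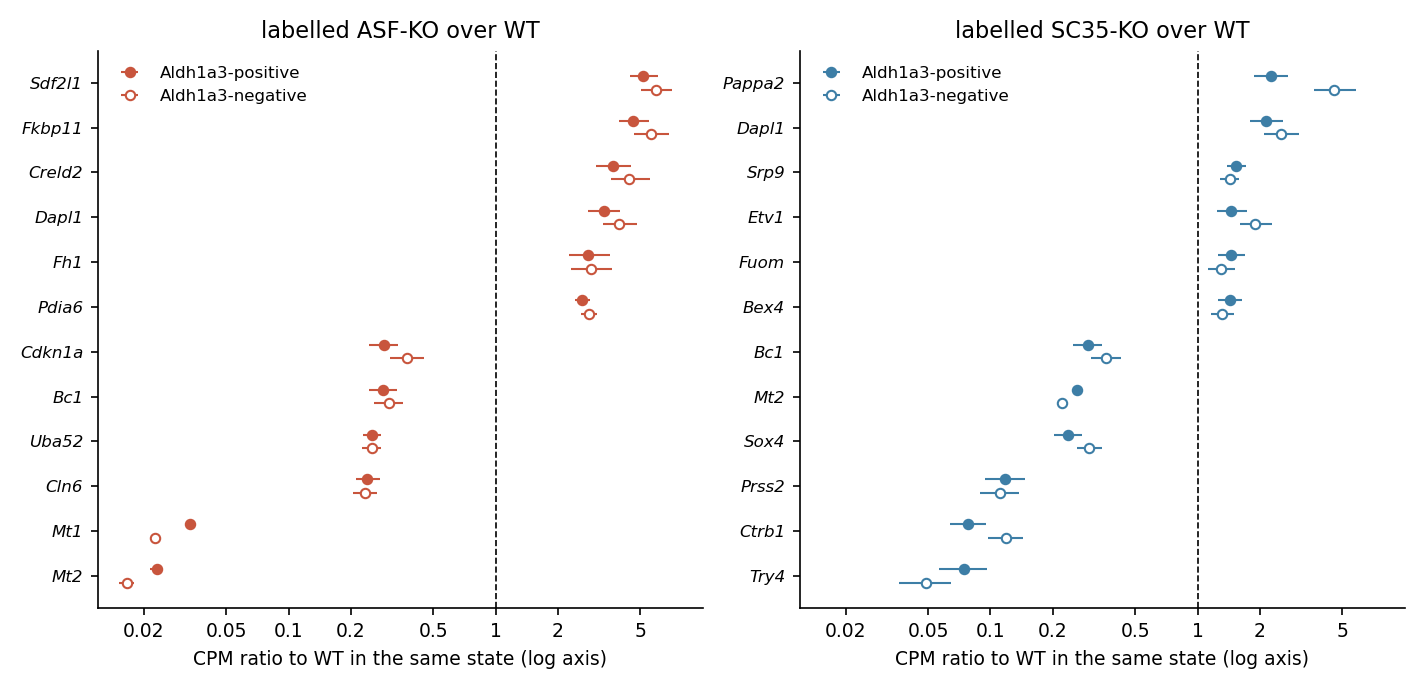
Ratio of CPM in the library labelled ASF-KO (left) or SC35-KO (right) over WT (x axis, log scale) for the 6 genes with the highest and the 6 with the lowest ratio in positive cells (y axis), in Aldh1a3-positive beta cells (filled points) and matched negative beta cells (open points), with 95% counting intervals and 1 library per genotype. Each gene lies on the same side of 1 in both states, and Pappa2 labelled SC35-KO has 2.25 in positive cells against 4.56 in negative cells.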

How the data were processed

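Each library was made from islets freed with collagenase, hand-picked, dissociated with trypsin and passed through a sieve, with 10x 3' chemistry, per the labels' protocols. The authors deposited raw UMI counts, 1 matrix per library with 32285 genes. Cell Ranger 5.0.0, STAR and Seurat, and the build mm10, are named per the submitters' processing notes; filters applied by the authors before deposit are not given in the sources used here. The matrices hold 12496, 13919 and 10266 barcodes (labelled ASF-KO, labelled SC35-KO, WT). The 3' counts show neither splice forms nor which exons were deleted.

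The members and all gene lists were chosen with earlier results of these data known. Alpha, delta and gamma gates needed their own hormone at 5% of UMIs or more, and endothelial and leukocyte gates 5 marker UMIs or more. Each positive cell was matched without replacement to 1 negative cell of its library within 0.1 on the log2 UMI scale; 8 positive cells labelled ASF-KO and 1 labelled SC35-KO found no partner. UMIs were summed per library and state, Aldh1a3 was left out, and sums were fitted in edgeR 4.0.16 (R 4.3.3, limma 3.58.1) with TMM factors, its default filter on low counts and a library block, which left 2 residual degrees of freedom. This block is a pairing by library: both states of a pair come from the same islets. The p-values rest on the spread between 3 libraries, moderated by a spread shared across genes, with 37.8 prior against 2 residual degrees of freedom. A gene whose libraries disagree, such as Pappa2, could therefore still be called. The script was tested on simulated data. DESeq2 1.42.0 was an alternative. Doublets were scored with Scrublet in scanpy 1.11.5; UMIs were thinned without replacement; intervals are exact (Poisson, Clopper-Pearson binomial and conditional binomial for ratios) at 95%, from scipy 1.17.1.

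Genes named are the 12 highest and 12 lowest log2 fold changes among called genes with 1 direction in all libraries and a mean of 20 CPM or more, up to 4 members of each list, all measured genes of the retinoic acid and dedifferentiation lists, and the 6 highest and 6 lowest genotype ratios per label. Ribosomal protein genes, unnamed gene models, sex-linked markers and genes of the gate were left out of these ranks. Slc2a2, Ero1lb, Ffar1, Ucn3, Iapp, Pdx1, Nkx6-1, Mef2c, the retinoic acid receptors quoted and the genes that open the other observations were chosen after their values were seen.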

Additional observations from a re-analysis of the deposited data

Results flagged for a closer look

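The following 3 lists ran in opposite directions in different libraries when positive cells were set against matched negative cells; the differences were not tested. The 15 cell cycle genes had a median log2 ratio of 0.36 labelled SC35-KO and -0.30 in WT. The 10 leukocyte markers had a median of -2.20 labelled ASF-KO and -0.46 labelled SC35-KO, against 0.37 in WT, where 1 positive cell held 36.8% of the leukocyte marker UMIs of positive cells. The 3 mesenchymal markers tested had a median of 2.86 labelled ASF-KO, from 164 UMIs in positive against 58 in negative cells, with 39.6% of the 164 in 1 cell; in WT the median was -2.32, from 19 against 56 UMIs.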

How the results depend on the processing

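In the test of positive against matched negative cells, with 91 genes higher and 68 lower, DESeq2 called 10 and 8, and 154 genes at an unadjusted p below 0.05. Matching on UMIs outside insulin and mitochondrial genes called 44 higher and 52 lower, of which 36 and 27 were among the main calls. Under that matching, 76 of the 91 higher genes and 68 of the 68 lower genes kept their direction. Leaving out 1 library gave 26 to 110 higher genes and 22 to 104 lower genes, the lowest counts without the library labelled ASF-KO and the highest without WT, and 33 lower without that labelled SC35-KO. Without the library block edgeR called 0 higher and 0 lower genes, and 62 at an unadjusted p below 0.05. No replicate number is given in the labels, so the block pairs the 2 states of a library and nothing else. The other alternatives (totals without insulin, no filter, all negative cells, another matching order, at least 2 Aldh1a3 UMIs, Scrublet-marked cells left out, insulin at 40%, mitochondrial share at 10%, marker-rich cells left out) gave 63 to 86 higher and 49 to 87 lower genes. These were not always the same genes: with all negative cells, 53 of the 80 higher and 42 of the 87 lower genes were among the main calls. Of 62 called genes among those named, 18 stayed called with DESeq2, 43 with matching outside insulin, 27 without the library labelled ASF-KO, 41 without that labelled SC35-KO and 61 without WT. Direction turned for Cela1 (-0.16), Clps (-0.054) and Zg16 (-0.15) with matching outside insulin; without the library labelled ASF-KO for Clps (-0.016 to 2.10 over the libraries left out), Zg16 (-0.28 to 1.07) and Cd74 (-2.01 to 0.20); for Cela1 (-0.11), Esm1 (0.11), Pnlip (-0.048) and Zg16 (-0.013) without marker-rich cells; and, for a gene not called, for Pyy (-0.27) with insulin at 40%. The cause was not tested.

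The share of Aldh1a3-positive beta cells follows depth by construction. It was 3.75, 2.85 and 0.505% at 2000 UMIs (labelled ASF-KO, labelled SC35-KO, WT), 12.02, 11.9 and 1.90% at 10000 UMIs and 23.0, 18.8 and 3.55% without thinning. With at least 2 UMIs asked for at 5000 it was 1.61, 0.896 and 0.110%. With UMIs outside insulin and mitochondrial genes thinned to 2000 it was 9.56 and 8.01% under the KO labels, and with insulin at 40% it was 8.54% labelled ASF-KO. Over UMIs outside insulin and mitochondrial genes, Aldh1a3 stood at 56.8, 48.1 and 4.81 CPM, and the median genotype ratios became -0.021 and -0.10. Both KO labels stayed above WT in each of these.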

Other observations

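Further single genes, chosen after their values were seen and not a tested group, differed between Aldh1a3-positive and matched negative beta cells. Pdyn, the precursor of dynorphin peptides, had 24.7, 19.98 and 12.1 CPM in positive cells, against 16.3, 14.3 and 3.30 CPM in matched negative cells (labelled ASF-KO, labelled SC35-KO, WT; log2 fold change 0.56). Ncam1, a neural cell adhesion molecule, had 52.95, 70.4 and 98.0 CPM against 43.9, 60.9 and 77.7 CPM, and Cd200, a surface ligand that restrains myeloid cells, had 56.3, 68.2 and 71.8 CPM against 45.5, 60.5 and 50.6 CPM. Tenm4, a teneurin of cell contacts, had 12.4, 10.1 and 16.3 CPM against 5.57, 7.64 and 6.61 CPM (log2 fold change 0.83). These 4 genes were higher in positive cells in all 3 libraries and passed edgeR's quasi-likelihood test, with adjusted p = 3.07e-05 for Pdyn, 0.0043 for Ncam1, 0.00335 for Cd200 and 5.96e-06 for Tenm4.

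Others chosen in the same way went in either direction. Ckb, the brain creatine kinase, had 139, 60.0 and 66.5 CPM in positive cells, against 109, 46.4 and 56.6 CPM in matched negative cells. Enpp2, the autotaxin that makes lysophosphatidic acid, had 46.5, 59.4 and 99.97 CPM against 33.7, 50.05 and 81.7 CPM. Maob, a monoamine oxidase, was lower, with 37.2, 27.8 and 49.3 CPM against 42.8, 33.5 and 54.6 CPM, and so was Robo2, a receptor for Slit guidance cues, with 38.9, 43.0 and 93.6 CPM against 43.5, 52.97 and 97.8 CPM. These 4 genes passed the same test, with log2 fold changes of 0.29, 0.30, -0.26 and -0.24 in the order named.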
